A study of Homo sapiens with 10 samples.

Results

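The regions described here are 3' untranslated regions (3'UTRs) that on average held a smaller share of a library's crosslinked counts after a rocaglate than after vehicle. A 3'UTR was a member when it had at least 90 counts over the 9 anti-FLAG libraries and its mean CPM over the 6 rocaglate libraries was at most 0.66 times its mean over the 3 DMSO libraries. CPM is the count of a row as its share of all counts of a library, scaled to the same total in every library. The rule found 1122 members among the 5990 3'UTRs that met the count minimum, here called eligible (18.7%). Any 3'UTR count in these libraries was seen for 16163 gene symbols. Because the members were chosen on this contrast, their lower CPM with rocaglates is a description and carries no test.

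The libraries came from HEK 293T, an established human embryonic kidney line, carrying FLAG-tagged eIF4A. Cells received 20 nM silvestrol, 20 nM CR-1-31-B or the vehicle DMSO for 1 h and were crosslinked by ultraviolet light (254 nm, 400 mJ/cm2). An anti-FLAG antibody pulled down the tagged protein with the RNA attached to it, which was read by eCLIP (enhanced crosslinking and immunoprecipitation). Each treatment had 3 libraries, numbered 1 to 3, and 1 input library, number 2, was made without antibody. The labels give no treatment for the input. All groups carry the tag, no library of untagged cells was analysed here, and the isoform of eIF4A and the way the tag was introduced are not given in the sources used here. Whether a number stands for a separate culture is not stated in the labels, so p-values measure only the spread between these libraries, which may be technical.

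eIF4A is an RNA helicase of the cap-binding complex eIF4F and opens structure in the 5' leader of an mRNA so that the small ribosomal subunit can load and scan. Silvestrol, a natural product, and CR-1-31-B, a synthetic relative, are rocaglates, which clamp eIF4A onto RNA with a preference for runs of purines. The 3'UTR follows the stop codon, lies outside the scanned leader, and carries sites for RNA-binding proteins and microRNAs.

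The longest runs of purines (A or G) in the 3'UTRs of 7 members are shown, since such runs are the sequence that rocaglates favour on eIF4A. The first 5 genes had the highest mean DMSO CPM among members, and the last pair had the lowest ratio of rocaglates to DMSO. Each window has 30 bases, 5′ to 3′ on the strand of the gene, with the run in capitals. They were read by gene symbol from GENCODE v29 transcripts (GRCh38), because the build of the count tables is not given in the sources used here. A run is a match of letters and not a crosslink site, since the deposited counts give no position within a 3'UTR. The windows lie at chr6:125978364-125978393 (plus strand) for HINT3, chr19:3976156-3976185 (minus strand) for EEF2, chr16:2771106-2771135 (plus strand) for SRRM2, chr12:56239753-56239782 (minus strand) for ANKRD52, chr6:34245975-34246004 (plus strand) for HMGA1, chr6:73826203-73826232 (plus strand) for CD109 and chr6:158766177-158766206 (minus strand) for EZR.
HINT3: aataacatAAAGGGGGAAGAAAcataaagt
EEF2: ttgccccAGAAAGGGGAAAGGAAcacgcgg
SRRM2: tgggagttGGGGGAGGGGAGGAtacagttc
ANKRD52: tggacctAGAAGGGGAGAAGAGGctggagg
HMGA1: actctttgtGGGGAAGAGGGGctggggcat
CD109: acaggcatAAGGAGAAAAGGAGtatatgta
EZR: attagttttAAAAAGGGAAAGttttgttct

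In GENCODE v29, 5844 of the 5990 eligible 3'UTRs (97.6%) had a match by symbol, 1093 of them members. The longest purine run had a median of 13 bases in members and 14 in the other eligible 3'UTRs, and a run of 20 or more was found in 14.5% and 18.5%. Purines made up a median of 48.2% of the bases in members and 48.6% in the others. G and C together made up 42.6% in members and 44.8% in the others, and the member share was 22.0% in the fifth of 3'UTRs with the least G and C and 15.5% in the fifth with the most. The letters AUUUA, a motif known from unstable mRNAs, occurred at a median of 1.80 per kb in members and 1.52 per kb in the others, and at least once in 79.1% and 77.8%. Median lengths were 1820 and 1899 bases. By these medians, members held no longer purine runs than the other 3'UTRs.

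The anti-FLAG libraries totalled 858733 to 1804732 counts and the input library 2193699. The HEK 293T markers VIM, KRT18, PAX2, KRT8 and NEFM had 1900, 407, 206, 184 and 90 counts over the 9 anti-FLAG libraries, whereas PTPRC, CD3E, HBB, ALB and COL1A2, markers of blood, liver and fibroblasts, had 1 to 7. The 3'UTR class as a whole held 19.8% ± 2.46 of all counts with rocaglates (SD, n = 6), against 25.7% ± 1.49 with DMSO (n = 3) and 19.7% in the input. These are shares of a library, so a larger share of one class lowers the others. The 5' leader class held 34.4%, 28.5% and 29.5% with silvestrol and 32.7%, 35.0% and 22.8% with CR-1-31-B, against 23.4%, 24.1% and 20.7% with DMSO. RNA levels were not measured for each treatment. Less crosslinking, less RNA and a larger share of other classes therefore cannot be told apart.

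Ratios of rocaglates to DMSO among members had a median of 0.586 and a minimum of 0.270, against a median of 0.843 for all eligible 3'UTRs. They were at most 0.4 in 50 members, from there up to 0.5 in 171, up to 0.6 in 451, and up to 0.66 in 450. Just inside the limit were ZC3H12D (0.6599), PYCR1 (0.6597), THAP5 (0.6596), PRDX4 (0.6595) and CCBE1 (0.6595), and just outside it VAV2 (0.6602), SKA2 (0.6602), GRB2 (0.6603), TOB2 (0.6604) and GNG13 (0.6605). Rows on either side of the limit hardly differed. In the opposite direction, 291 eligible 3'UTRs (4.86%) had a ratio of at least 1.52, the inverse of the limit.

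**Figure D1:**
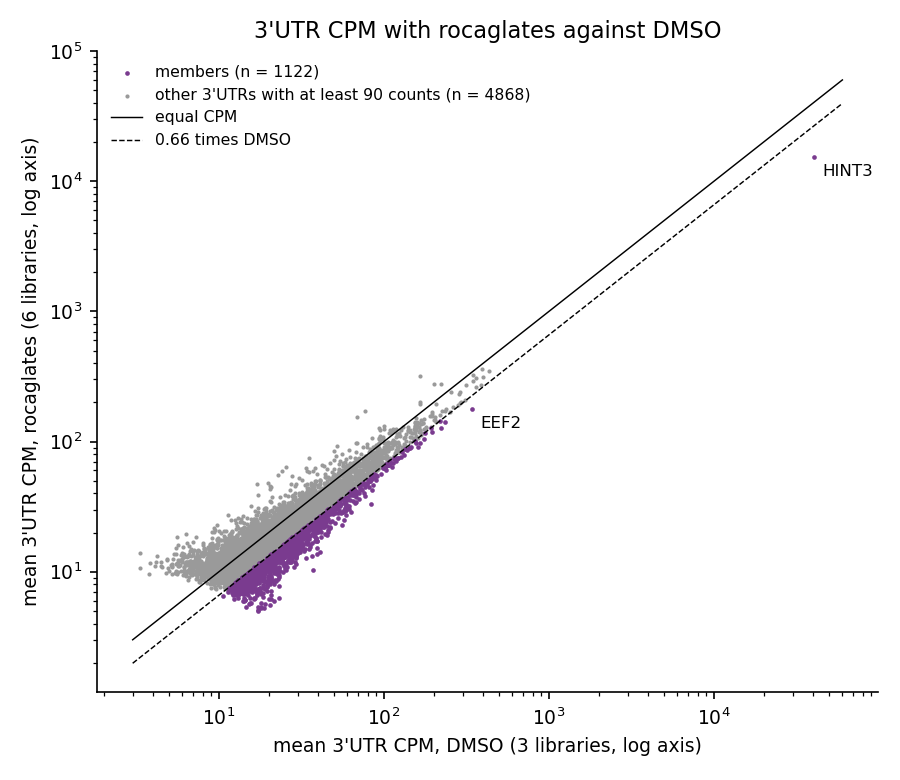
Mean 3'UTR CPM over the 6 rocaglate libraries (vertical, log axis) against the mean over the 3 DMSO libraries (horizontal, log axis) for the 1122 members (purple) and the 4868 other eligible 3'UTRs (grey). The solid line marks equal CPM and the dashed line 0.66 times DMSO. HINT3 lies far to the right of all other rows, and most members lie in the dense cloud of low CPM.

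Member 3'UTRs together held 3.65% ± 0.472 of all counts with rocaglates (SD, n = 6), against 7.71% ± 1.30 with DMSO (n = 3) and 2.77% in the input. The silvestrol libraries held 3.96% ± 0.307 and the CR-1-31-B libraries 3.34% ± 0.417 (SD, n = 3 each). The 3'UTR of HINT3 alone made up 1.53% of all counts with rocaglates, 4.03% with DMSO and 0.0268% in the input. So a single row carried -2.49 of the -4.06 percentage points between rocaglates and DMSO. Without HINT3, the other members held 2.12% ± 0.350 with rocaglates, 3.69% ± 0.0935 with DMSO and 2.75% in the input, while the 4868 eligible 3'UTRs outside the rule held 13.5% ± 1.85, 14.996% ± 1.82 and 14.0%.

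Whether the lower ratios were seen again was read in libraries that the choice had not used. The rule was applied to the 6 libraries of 2 numbers, with a minimum of 60 counts, and the chosen 3'UTRs were then read in the 3 libraries of the number left out. In the libraries used for the choice, the median ratio of the chosen 3'UTRs averaged 0.562 over the 3 rounds. In the left-out libraries it averaged 0.818 (0.735, 0.824 and 0.895 with number 1, 2 and 3 left out), against 0.849 for all eligible 3'UTRs (0.762, 0.880 and 0.905). A ratio of at most 0.66 was seen again in 32.3% of the chosen and in 29.6% of all eligible 3'UTRs, and the rocaglate mean lay below DMSO in 65.3% and 63.6%. Outside the libraries used, chosen 3'UTRs thus stood nearly at the level of all eligible 3'UTRs, which themselves lay somewhat below DMSO.

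The same was read by depth. Chosen 3'UTRs with 60 to under 120 counts in the libraries used had a left-out ratio of 0.848, against 0.871 for all eligible 3'UTRs of that depth. With 120 to under 300 counts the values were 0.809 and 0.847, and with 300 to under 600 counts 0.815 and 0.832. Chosen 3'UTRs with at least 600 counts, 19 to 49 of them in a round, had a left-out ratio of 0.719 (0.663 to 0.756), against 0.813 (0.771 to 0.844) for all eligible 3'UTRs of that depth. The gap did not grow steadily with depth and was widest in these few deepest rows. Members had a median of 175 counts over the 9 libraries, against 201.5 for the other eligible 3'UTRs, and 577 members had under 180. When each of the 9 libraries was left out in turn, 309 members met the rule every time.

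**Figure D2:**
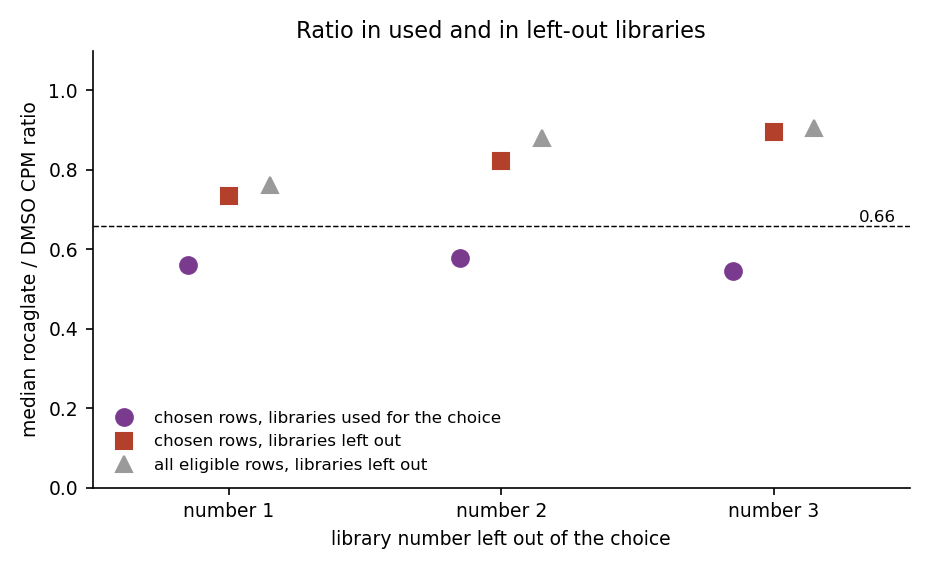
Median ratio of rocaglate to DMSO CPM (vertical) with the libraries of number 1, 2 or 3 left out of the choice (horizontal). Circles give the chosen 3'UTRs in the libraries used, at 0.546 to 0.579, squares the same 3'UTRs in the libraries left out, at 0.735 to 0.895, and triangles all eligible 3'UTRs in the libraries left out, at 0.762 to 0.905. The dashed line is the limit of 0.66.

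A single number has 1 library of each compound and 1 of DMSO. The rocaglate mean lay below DMSO in all 3 numbers for 799 members (71.2%), beside 26.9% of all eligible 3'UTRs. The ratio was at most 0.66 in all 3 for 153 members (13.6%), beside 2.55% of all eligible 3'UTRs. All 6 rocaglate libraries lay below all 3 DMSO libraries for 209 members (18.6%), an order seen in 4.06% of all eligible 3'UTRs. For silvestrol alone the ratio was at most 0.66 in 887 members, for CR-1-31-B alone in 861, and for both compounds in 626. The rule selects for all of these counts, so nothing is read from them or their shares.

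HINT3, of the histidine triad family of nucleotide-binding proteins, had by far the highest 3'UTR level of all members. The HINT3 3'UTR had 18514, 23666 and 13700.4 CPM with silvestrol and 16093, 13479 and 6576 CPM with CR-1-31-B, against 26406, 54278 and 40068 CPM with DMSO and 268 CPM in the input. Each rocaglate library lay below each DMSO library, and all of them lay far above the input, the DMSO mean at 150.4 times its level. The ratio of rocaglates to DMSO was 0.655, 0.342 and 0.253 in number 1, 2 and 3, and the lowest values fell in numbers 2 and 3, whose DMSO libraries were the highest. The 3'UTR made up 99.8% of the counts in the gene's leader, CDS and 3'UTR with rocaglates, 100.0% with DMSO and 97.0% in the input.

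In a fit across all 24713 rows with enough counts, 1112 members were tested. This main fit did not include the library number. With Benjamini-Hochberg adjustment, the quasi-likelihood test of edgeR called 1 member lower for both rocaglates against DMSO, beside 1 of all 6712 3'UTRs tested (0.0149%), namely HINT3, at log2 -1.43 (SE 0.32). Leaving out silvestrol 2, CR-1-31-B 1 or CR-1-31-B 3 kept the call, and leaving out any 1 of the other libraries ended it, so that the count was then 0. At an unadjusted p under 0.05, 265 members were lower, beside 276 of all 3'UTRs tested (4.11%). DESeq2 called 7 members lower, beside 7 of all 3'UTRs (0.104%). With the library number as a block, 8 members were called lower, beside 8 of all 3'UTRs (0.119%), namely HINT3, EEF2, ANKRD52, HMGB1, SCRN1, AGFG2, ATP9A and FAM213A. For silvestrol alone and CR-1-31-B alone against DMSO, edgeR called 0 members (0% of 3'UTRs in each). At an unadjusted p under 0.05, 162 and 178 members were lower, beside 189 (2.82%) and 227 (3.38%) of all 3'UTRs. DESeq2 called ATP9A with silvestrol and HINT3 and SIAE with CR-1-31-B, the same counts as over all 3'UTRs (0.0149% and 0.0298%). The block called 3 members with each compound, beside 3 of all 3'UTRs (0.0447%). With silvestrol these were HINT3, HMGB1 and ATP9A, and with CR-1-31-B HINT3, SIAE and EEF2. In silvestrol library 2, HMGB1 and ATP9A had only 3 counts each (2.99 CPM). All these numbers of calls repeat the contrast of the rule and nothing is read from them.

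Among genes of translation, EEF2 encodes the elongation factor that moves the ribosome along the mRNA. The EEF2 3'UTR had 175, 125 and 270.2 CPM with silvestrol and 204, 104 and 180.2 CPM with CR-1-31-B, against 339, 311 and 376 CPM with DMSO and 145 CPM in the input. All 6 rocaglate libraries were below all 3 DMSO libraries, with a ratio of 0.559, 0.369 and 0.598 in number 1, 2 and 3. The CDS of EEF2 showed the same order, at 925, 879 and 946 CPM with silvestrol and 979.9, 869 and 761 CPM with CR-1-31-B, against 1368, 1467 and 1335 CPM with DMSO and 1928 CPM in the input, but was not called (log2 -0.64, SE 0.26, Benjamini-Hochberg adjusted p = 0.378 by edgeR's quasi-likelihood test). EEF2 belongs to a list of elongation and release factors in which 4 of 8 eligible 3'UTRs were members (50%), beside 18.7% of all eligible 3'UTRs. The others were ETF1 (ratio 0.540), a release factor that reads stop codons, EEF1G (0.597), a subunit of the exchange factor for eEF1A, and EEF1AKMT2 (0.453), a methyltransferase for eEF1A.

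Of the initiation factors and their regulators, 7 of 28 eligible 3'UTRs were members (25%), beside 18.7% of all eligible 3'UTRs. EIF4E encodes the cap-binding subunit of eIF4F. The EIF4E 3'UTR had 34.4, 54.8 and 67.5 CPM with silvestrol and 42.8, 60.2 and 67.7 CPM with CR-1-31-B, against 54.1, 103 and 105 CPM with DMSO and 63.8 CPM in the input. Only silvestrol library 1 and CR-1-31-B library 1 were below all DMSO libraries, so the groups overlapped. EIF1 encodes a factor that guards start codon choice. The EIF1 3'UTR had 34.4, 30.9 and 15.1 CPM with silvestrol and 36.0, 20.3 and 33.8 CPM with CR-1-31-B, against 77.5, 37.2 and 37.1 CPM with DMSO and 71.1 CPM in the input. Its 6 rocaglate libraries were below all 3 DMSO libraries, yet its DMSO mean was also below the input. The others were EIF4A2 (ratio 0.627), which encodes a paralogue of the helicase eIF4A1, EIF3J (0.563), a loosely bound part of eIF3, EIF4G2 (0.587), a relative of the scaffold eIF4G, EIF4E2 (0.457), a cap-binding repressor of translation, and EIF2AK1 (0.616), a kinase that blocks initiation.

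Cytosolic ribosomal protein genes had 9 members among 23 eligible 3'UTRs (39.1%), beside 18.7% of all eligible 3'UTRs. RPL15 encodes a protein of the large subunit. The RPL15 3'UTR had 102, 55.8 and 72.2 CPM with silvestrol and 82.0, 53.9 and 83.0 CPM with CR-1-31-B, against 123, 127 and 117 CPM with DMSO and 102 CPM in the input. It had the highest DMSO level of these members, and the groups did not overlap. RPS28, of the small subunit, had a ratio of 0.486, also without overlap, and RPS23 one of 0.558 with 4 of 6 rocaglate libraries below all DMSO libraries. RPS14 (0.456), RPL13A (0.576), RPL23A (0.602), RPL29 (0.620), RPS3 (0.636) and RPS24 (0.635) were the others. Many of these genes have processed pseudogenes, so their counts are uncertain. Of 24 eligible mitochondrial ribosomal protein genes 7 were members (29.2%), among them MRPL42 (0.620), MRPL49 (0.636) and MRPS34 (0.605).

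RNA processing genes were among the most deeply covered members. SRRM2, a large serine and arginine rich splicing protein of nuclear speckles, had the third highest DMSO mean. The SRRM2 3'UTR had 136, 98.6 and 156 CPM with silvestrol and 176, 131 and 155 CPM with CR-1-31-B, against 257, 178 and 269 CPM with DMSO and 84.3 CPM in the input. The groups did not overlap and the ratio was steady, at 0.608, 0.647 and 0.578 in number 1, 2 and 3. NONO encodes a paraspeckle protein. The NONO 3'UTR had 188, 104 and 127 CPM with silvestrol and 134, 86.0 and 124 CPM with CR-1-31-B, against 264, 142 and 174 CPM with DMSO and 181 CPM in the input. Here 5 of 6 rocaglate libraries were below all DMSO libraries, and the DMSO mean was close to the input. HNRNPC (ratio 0.617), an hnRNP that binds uridine tracts, and SF3B3 (0.563), of the splicing factor SF3b, had no overlap between groups either. Among hnRNP and SR protein genes 5 of 30 were members (16.7%), beside 18.7% of all eligible 3'UTRs. Deadenylation, decay and microRNA factors had 11 of 39 (28.2%), including CNOT3 (0.556), of the CCR4-NOT deadenylase, and SMG6 (0.539), an endonuclease of nonsense-mediated decay.

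Chromatin genes included HMGA1, HDGF and HMGB1. HMGA1 encodes an architectural protein that binds AT-rich DNA. The HMGA1 3'UTR had 162, 101 and 168 CPM with silvestrol and 137, 131 and 159 CPM with CR-1-31-B, against 184, 159 and 313 CPM with DMSO and 153 CPM in the input. Only 3 rocaglate libraries were below all DMSO libraries, and the ratio was at most 0.66 in number 3 alone (0.813, 0.726 and 0.523 in number 1, 2 and 3). HMGB1 encodes an abundant DNA-bending protein and has many processed pseudogenes. The HMGB1 3'UTR had 53.7, 2.99 and 29.1 CPM with silvestrol and 43.5, 21.1 and 48.0 CPM with CR-1-31-B, against 122, 47.5 and 79.5 CPM with DMSO and 42.4 CPM in the input. Silvestrol library 2 was by far the lowest, at 3 counts, and silvestrol library 1 and CR-1-31-B library 3 overlapped with DMSO library 2. Histone genes had 9 members of 17 eligible 3'UTRs (52.9%), beside 18.7% of all eligible 3'UTRs. Ratios were 0.547 for HIST1H3B, 0.610 for H2AFV and 0.651 for HIST2H2BE. HIST1H3B had a DMSO mean 24.0 times the input as the CPM stand, on only 4 input counts (1.82 CPM), and a log2 ratio of 3.99 with 1 CPM added to both. Chromatin remodelling and modification genes had 16 of 62 (25.8%), among them SMARCD2 (0.469), of the SWI/SNF complex, and KMT2A (0.608), a histone methyltransferase, both without overlap between groups.

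Metabolic and folding genes made up further members. PKM encodes the pyruvate kinase that ends glycolysis. The PKM 3'UTR had 107, 24.9 and 69.9 CPM with silvestrol and 107, 57.1 and 85.2 CPM with CR-1-31-B, against 182, 71.7 and 109 CPM with DMSO and 72.0 CPM in the input. The DMSO libraries spread widely, and 3 rocaglate libraries were below all of them. The glycolysis list had 5 members of 15 (33.3%), beside 18.7% of all eligible 3'UTRs. Besides PKM these were ENO1 (ratio 0.607), PGAM1 (0.566), LDHA (0.454) and LDHB (0.383), with no overlap between groups for ENO1 and LDHA. Heat shock proteins and chaperones had 10 of 34 (29.4%). HSP90AB1, a cytosolic HSP90, had 122, 87.6 and 75.7 CPM with silvestrol and 117, 79.7 and 65.5 CPM with CR-1-31-B, against 161, 139 and 136 CPM with DMSO and 83.0 CPM in the input. Its groups did not overlap, whereas those of HSP90AA1 (0.643) and HSPD1 (0.503), the mitochondrial HSP60, did.

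Cytoskeletal and trafficking genes held ACTR2, of the actin-nucleating ARP2/3 complex. The ACTR2 3'UTR had 125, 71.7 and 139.7 CPM with silvestrol and 113, 63.3 and 112 CPM with CR-1-31-B, against 193, 141 and 187 CPM with DMSO and 63.8 CPM in the input. All 6 rocaglate libraries were below all DMSO libraries, as they were for ACTG1 (ratio 0.650), a cytoplasmic actin with many pseudogenes. RAB and ARF GTPases had 18 members of 58 (31.0%), beside 18.7% of all eligible 3'UTRs. Among them were ARL6IP1 (0.638), which is listed by its name as a partner of the GTPase ARL6, and RAB40A (0.605). Solute carriers had 27 of 120 (22.5%), among them SLC1A5 (0.601), a glutamine transporter. EZR, an actin-membrane linker, and CD109, a membrane-anchored protein, had the lowest ratios of all. The EZR 3'UTR had 10.5, 5.98 and 4.66 CPM with silvestrol and 5.59, 0 and 6.55 CPM with CR-1-31-B, against 25.2, 25.1 and 10.6 CPM with DMSO and 7.29 CPM in the input. The CD109 3'UTR had 4.99, 11.95 and 5.82 CPM with silvestrol and 8.07, 0 and 6.55 CPM with CR-1-31-B, against 27.1, 24.2 and 18.0 CPM with DMSO and 16.4 CPM in the input. CR-1-31-B library 2 had 0 counts in both, where 3 counts would be 2.35 CPM. EZR rests on 108 counts over the 9 libraries and CD109 on 117. The next lowest ratios were those of FAM213A (0.276), GABARAPL1 (0.276), EMC8 (0.282), PRPF31 (0.290), TPM2 (0.295), ATP5B (0.295), FIGN (0.296) and MRPL43 (0.298), among them GABARAPL1 of autophagy, the splicing factor PRPF31 and the tropomyosin TPM2. All 10 rested on 92 to 192 counts over the 9 libraries.

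Further members of high level came from several functions. ANKRD52 encodes a regulatory subunit of protein phosphatase 6. The ANKRD52 3'UTR had 141, 87.6 and 174 CPM with silvestrol and 142, 87.6 and 127 CPM with CR-1-31-B, against 218, 232 and 219 CPM with DMSO and 109 CPM in the input. The ratio was 0.649, 0.378 and 0.684 in number 1, 2 and 3, without overlap between the groups. YWHAE encodes a 14-3-3 protein. The YWHAE 3'UTR had 144, 88.6 and 122 CPM with silvestrol and 143, 100.1 and 110.3 CPM with CR-1-31-B, against 265, 114 and 204 CPM with DMSO and 131 CPM in the input. DMSO library 2 lay within the rocaglate range, and the ratios were 0.541, 0.824 and 0.571 in number 1, 2 and 3. HDGF, a growth factor that binds chromatin, had ratios of 0.672, 0.581 and 0.667 in number 1, 2 and 3. FAM168B, a membrane protein, had ratios of 0.646, 0.516 and 0.611 in number 1, 2 and 3, and SCD, the stearoyl-CoA desaturase, had a ratio of 0.623 over all libraries.

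Gene lists differed in how many of their eligible 3'UTRs were members, beside 18.7% overall. Zinc finger genes had 17 of 203 (8.37%), and immediate early and AP-1 genes 0 of 14. The lists were also read over all their eligible 3'UTRs, members or not, within each library number. The 23 ribosomal protein 3'UTRs had median ratios of 0.630, 0.691 and 0.750 in number 1, 2 and 3, against 0.759, 0.891 and 0.909 for all eligible 3'UTRs, and their CDS had 0.766, 0.743 and 0.856, against 0.936, 0.984 and 1.00 for all CDS of eligible genes. Zinc finger 3'UTRs lay above all eligible 3'UTRs in each number, at 0.808, 0.969 and 1.03, and so did their CDS, at 1.23, 1.34 and 1.18. Immediate early 3'UTRs, of genes that cells induce within minutes of a stimulus, had 0.956, 1.23 and 1.66, and their CDS 1.59, 1.28 and 1.46. Glycolysis 3'UTRs had 0.774, 0.786 and 0.710, lower than all eligible 3'UTRs in 2 of 3 numbers, and their CDS 0.725, 0.623 and 0.732. Over all libraries, median leader ratios were 0.930 for the ribosomal, 1.39 for the zinc finger, 1.66 for the immediate early and 1.33 for the glycolysis list. All eligible genes with at least 90 leader counts had 1.33, so the ribosomal list was lower in all parts of its genes. In every number and for both 3'UTR and CDS, 8 of the 28 lists lay below all eligible genes, the ribosomal list among them, as were initiation factors, elongation and release factors, hnRNP and SR proteins, and chaperones. The zinc finger and immediate early lists were the 2 that lay above in this way, with no test run on it.

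**Figure D3:**
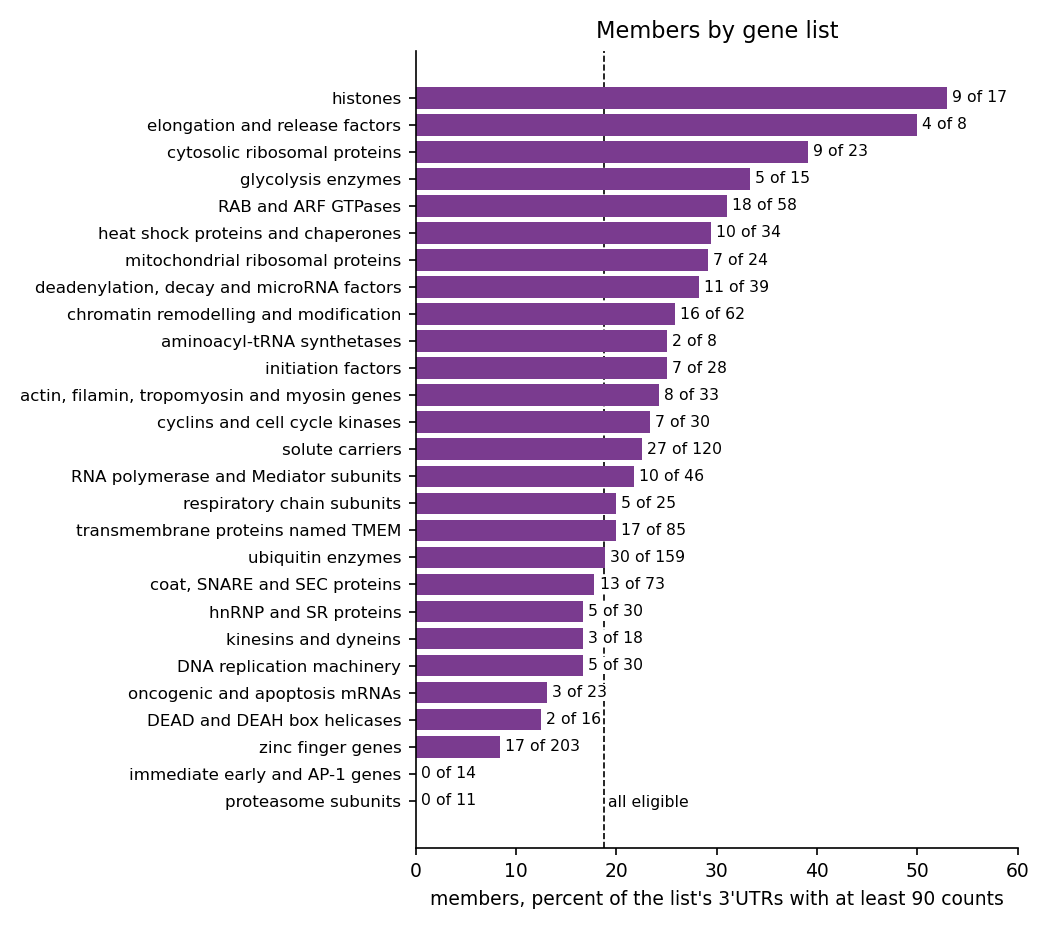
Members as a percent of the 3'UTRs with at least 90 counts in each of the gene lists with 8 or more such 3'UTRs, with the number of members beside each bar. The dashed line marks the 18.7% of all eligible 3'UTRs. Histones and elongation and release factors stand highest, on 17 and 8 3'UTRs, and zinc finger genes stand well below the line.

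The input library gives the counts of each 3'UTR without the antibody. Median log2 ratios to it were computed with 1 CPM added to both sides, and ratios of single genes and counts of genes past a fold without it. Rocaglate libraries were below the input for members, with a median log2 ratio of -0.34, against -0.03 for the other eligible 3'UTRs. DMSO libraries were above it, with a median of 0.44 for members, against 0.09 for the others. Rocaglates lay above input in 24.96% of members and 47.6% of the others, and DMSO in 81.5% and 56.6%. A DMSO mean at least 2-fold over input was seen in 192 members (17.1%), against 9.35% of all eligible 3'UTRs. Input CPM, which the rule did not read, had a median of 18.0 in members and 20.1 in the others. With totals of the leader, CDS and 3'UTR classes only, which leave out the ncRNA counts that fill 39.5% of the input, the members' DMSO to input median was -0.02 and that of the others -0.37.

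The higher DMSO to input ratio was read in left-out libraries as well. DMSO libraries used for the choice gave the chosen 3'UTRs a median log2 ratio to input of 0.49. The DMSO library left out gave 0.07 for the chosen and 0.07 for all eligible 3'UTRs. The excess over input was thus seen in the DMSO libraries that entered the rule and not in those outside it. High ratios were also seen in single members. Beside HINT3 and HIST1H3B these were LMNB1, of the nuclear lamina, at 7.16 times the input, ZNF428 at 5.34, TRAPPC3 at 5.19, TGFB1 at 5.05 and RAC3 at 4.63. LMNB1 had 29.9, 7.97 and 69.9 CPM with silvestrol and 29.2, 7.04 and 42.6 CPM with CR-1-31-B, against 64.4, 22.3 and 70.0 CPM with DMSO and 7.29 CPM in the input. Number 2 was the lowest under each treatment, and the groups overlapped. Among members with at least 10 input counts, the lowest DMSO to input ratios were 0.497 for MTFMT, 0.503 for MCUR1, 0.552 for ATM, 0.547 for SLC25A15, 0.563 for PACS2 and 0.563 for GSR, so not every member was above the input with DMSO.

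**Figure D4:**
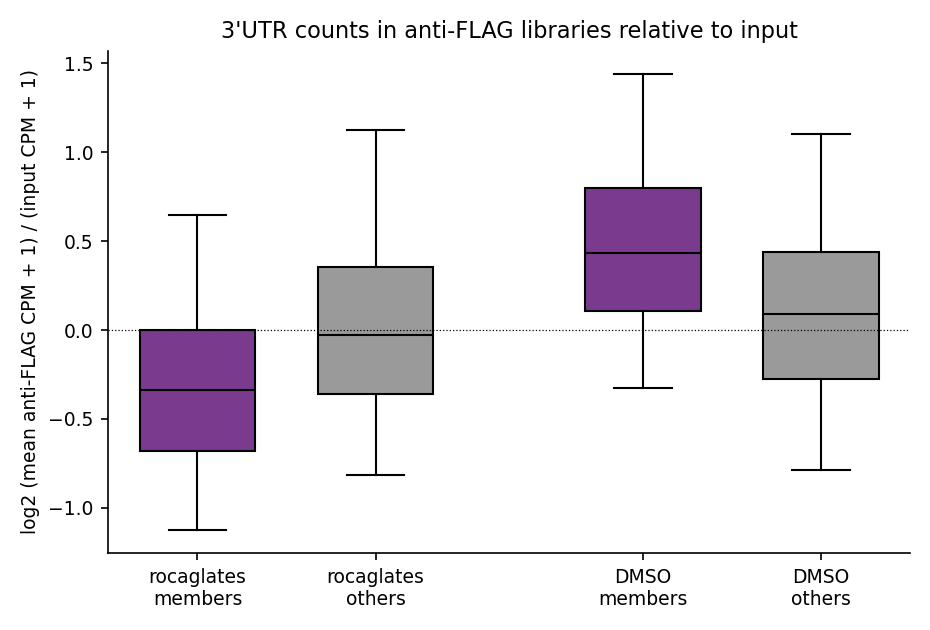
Log2 ratio of mean anti-FLAG CPM to input CPM, each with 1 CPM added (vertical), for rocaglates and DMSO, with members in purple and the other eligible 3'UTRs in grey. Boxes give the quartiles and the median, and whiskers the 5th and 95th percentiles. Members lie below the input with rocaglates, with a median of -0.34, and above it with DMSO, with a median of 0.44.

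Other parts of the same genes were rows the rule did not read, though they come from the same libraries and totals. Among member genes, 762 leaders had enough counts for the fit and a median log2 fold change of 0.31 for both rocaglates against DMSO, against 0.36 for all 7122 leaders. Their CDS had a median of -0.16 over 895 rows, against -0.09 for all 8413. By CPM, leaders of member genes with at least 90 counts had a median ratio of 1.25, against 1.35 for those of the other eligible genes, and CDS had 0.908, against 0.971. A CDS ratio of at most 0.66 was found in 16.1% of member genes and 11.5% of the others. Leader and CDS often lay on opposite sides of DMSO, with a leader ratio above 1 and a CDS ratio below 1 in 244 of 593 member genes (41.1%) and 36.6% of the others. The 3'UTR share of a gene's own counts has the chosen 3'UTR as its numerator, so the rule fixes its direction and it is given as a description. It was a median of 26.7% with rocaglates, 41.5% with DMSO and 46.8% in the input for members, against 37.2%, 41.6% and 50.9% for the others.

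By the same edgeR test and adjustment, leaders called higher for both rocaglates against DMSO numbered 16 of the 762 tested in member genes, beside 99 of all 7122 leaders (1.39%), and 0 leaders were called lower. At an unadjusted p under 0.05, 135 were higher and 18 lower, where 19.4% of all leaders passed that mark in either direction and 1.45% were lower. DESeq2 called 54 leaders of member genes higher and 2 lower, beside 415 (5.83%) and 4 (0.0562%) of all leaders. Limma voom called 11 and 0, beside 83 (1.17%) and 1 (0.014%) of all. Silvestrol alone had 8 called leaders of member genes, beside 61 of all leaders (0.857%), and CR-1-31-B alone had 7, beside 57 of all (0.8%). PCDH9 encodes a protocadherin, a cell adhesion protein. The PCDH9 leader had 192, 159 and 293 CPM with silvestrol and 80.7, 162 and 43.7 CPM with CR-1-31-B, against 19.6, 26.1 and 12.7 CPM with DMSO and 29.6 CPM in the input. All rocaglate libraries were above all DMSO libraries (log2 fold change 2.87, SE 0.44, edgeR adjusted p = 0.00523), while the PCDH9 3'UTR had 22.7, 24.9 and 38.4 CPM with silvestrol and 15.5, 30.5 and 52.4 CPM with CR-1-31-B, against 53.2, 56.8 and 64.7 CPM with DMSO and 54.7 CPM in the input. PPP2CA, the catalytic subunit of protein phosphatase 2A, differed by log2 2.31 in its leader (SE 0.36, adjusted p = 0.00561 by edgeR). The PPP2CA leader had 334, 193 and 184 CPM with silvestrol and 255, 275 and 126 CPM with CR-1-31-B, against 45.7, 40.0 and 53.0 CPM with DMSO and 12.3 CPM in the input. Again the groups did not overlap.

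Leaders of NONO, HMGB1, SRRM2 and HINT3 were among those called. The NONO leader had 767, 269 and 396 CPM with silvestrol and 380.0, 282 and 243 CPM with CR-1-31-B, against 126, 101 and 92.2 CPM with DMSO and 25.1 CPM in the input. All rocaglate libraries exceeded all DMSO libraries (log2 fold change 1.84, SE 0.35, edgeR adjusted p = 0.0173). The HMGB1 leader had 680.4, 251 and 374 CPM with silvestrol and 342, 334 and 179 CPM with CR-1-31-B, against 137, 81.0 and 54.1 CPM with DMSO and 14.6 CPM in the input. The lowest rocaglate library was again above the highest DMSO library (log2 1.96, SE 0.39, edgeR adjusted p = 0.0227). For SRRM2 the leader differed by log2 1.45 (SE 0.32, adjusted p = 0.0440 by edgeR), while its CDS, the largest part by counts, differed by -0.22 (adjusted p = 0.855). The HINT3 leader had 27.7, 51.8 and 18.6 CPM with silvestrol and 30.4, 36.7 and 12.01 CPM with CR-1-31-B, against 5.60, 2.79 and 5.30 CPM with DMSO and 1.82 CPM in the input. The HINT3 leader was a small fraction of its 3'UTR level, and its groups did not overlap (log2 2.69, SE 0.58, edgeR adjusted p = 0.0416).

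**Figure D5:**
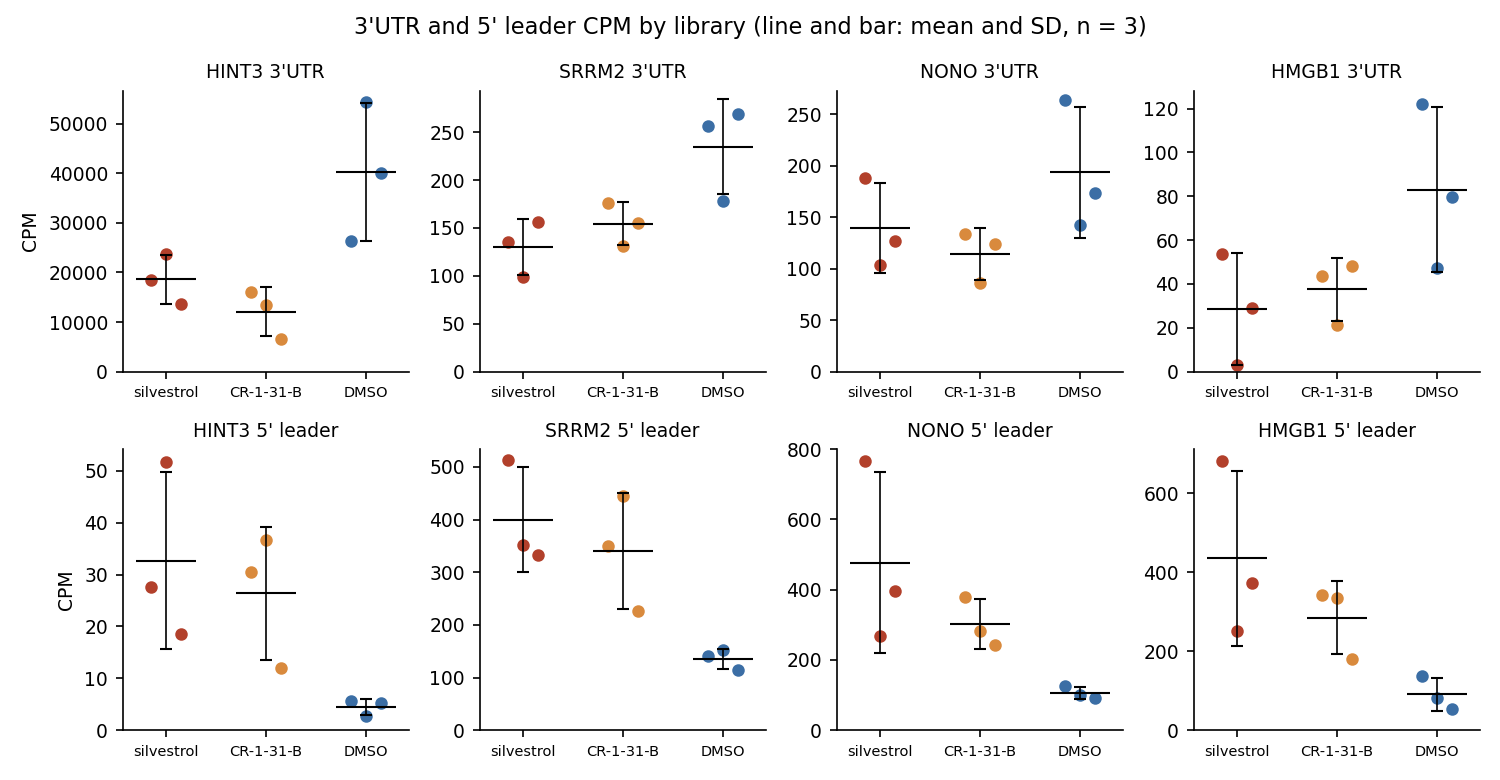
CPM of each library (points) with the mean and SD of 3 libraries (line and bar) for the 3'UTR (upper row) and the 5' leader (lower row) of HINT3, SRRM2, NONO and HMGB1, with silvestrol, CR-1-31-B and DMSO from left to right. In all 4 genes the 3'UTR mean is lower and the leader mean higher with each compound than with DMSO. The genes were picked as members with a called leader, so both directions follow from the choice. Over all member genes with at least 90 leader counts the median leader ratio was 1.25, against 1.35 for the other eligible genes. Each panel has its own vertical scale from 0.

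The leader of SON, a splicing protein of nuclear speckles, had 186 counts in the 6 rocaglate libraries and 1 count in the 3 DMSO libraries. The SON leader had 31.6, 3.98 and 14.0 CPM with silvestrol and 23.6, 48.5 and 14.2 CPM with CR-1-31-B, against 0, 0 and 1.06 CPM with DMSO and 0 CPM in the input. Every rocaglate library exceeded every DMSO library. The ratio of pooled CPM was 76.9 (95% exact interval 13.6 to 3053, counting error only, since PCR copies are not independent molecules), and the leader was called (edgeR adjusted p = 0.0122). CFL2, an actin-severing cofilin, CHCHD7, a mitochondrial protein, and SEL1L, of the degradation machinery of the endoplasmic reticulum, had leader log2 fold changes of 2.52, 2.47 and 2.33. The other 6 called leaders had 1.35 to 1.97. With the replicate block 54 leaders of member genes were called higher, beside 383 of all leaders (5.38%), and 3 lower, beside 6 of all (0.0842%).

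These leader calls depended on single libraries. The count was 3, 2 and 0 without DMSO library 1, 2 and 3, 4, 22 and 8 without silvestrol library 1, 2 and 3, and 3, 5 and 34 without CR-1-31-B library 1, 2 and 3. PCDH9 was called in 8 of these 9 fits and lost without DMSO library 3 (edgeR adjusted p = 0.0888). PPP2CA was called in 7, SON in 6, NONO and HMGB1 in 5, HINT3 and CFL2 in 3, and SRRM2, CHCHD7 and SEL1L in 2.

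CDS called higher in the same contrast numbered 2 of the 895 tested in member genes, beside 19 of all 8413 CDS (0.226%), and 0 were called lower, with 31 higher and 50 lower at an unadjusted p under 0.05, where 8.25% of all CDS passed in either direction and 3.44% were lower. DESeq2 called 6 higher and 2 lower, beside 89 (1.06%) and 6 (0.0713%) of all CDS. Limma voom called 1 and 0, beside 18 (0.214%) and 1 (0.0119%) of all. The pair called by edgeR was NAA30, a catalytic subunit of an N-terminal acetyltransferase (log2 fold change 2.31, SE 0.50, edgeR adjusted p = 0.0416), and KLHL11, a kelch protein of ubiquitin ligases (1.78, SE 0.39, edgeR adjusted p = 0.0416). The NAA30 CDS had 36.0, 49.8 and 19.8 CPM with silvestrol and 48.4, 71.1 and 33.8 CPM with CR-1-31-B, against 3.73, 8.38 and 13.8 CPM with DMSO and 10.5 CPM in the input. All rocaglate libraries were above all DMSO libraries for NAA30. The KLHL11 CDS had 72.6, 27.9 and 38.4 CPM with silvestrol and 77.6, 99.3 and 86.3 CPM with CR-1-31-B, against 22.4, 17.7 and 15.9 CPM with DMSO and 18.7 CPM in the input. The groups did not overlap for KLHL11 either, and its CR-1-31-B libraries were the highest. The 3'UTRs of both genes were members, with a ratio of 0.516 for NAA30, on 100 counts in all, and 0.652 for KLHL11. With the block 5 CDS of member genes were called higher, beside 76 of all CDS (0.903%), and 7 lower, beside 19 of all (0.226%). Without single libraries the count of called CDS was 0 to 3, at 0 without any 1 DMSO library, without silvestrol 1 and without CR-1-31-B 1 or 2, and at 1 without silvestrol 3.

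CR-1-31-B and silvestrol were compared at the same dose and time, a difference the rule did not use because it averages both compounds. The edgeR fit with its Benjamini-Hochberg adjustment called 0 member 3'UTRs (0% of all 3'UTRs), with 9 higher and 6 lower at an unadjusted p under 0.05, where 1.71% of all 3'UTRs passed that mark in either direction. DESeq2, limma voom and the replicate block called 0 as well. The median log2 difference of CR-1-31-B minus silvestrol was 0.01 for members and -0.01 for all 3'UTRs. For HINT3 it was -0.67, with a 95% interval of -1.46 to 0.12, for EEF2 -0.26 (-0.99 to 0.47) and for SRRM2 0.21 (-0.47 to 0.89). These intervals include 0 but also differences of more than 1.5-fold, so they do not show that the compounds act alike.

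RELL1, SIAE and NUDT4 were named because their differences between the compounds were among the largest of all members. The 95% intervals given below are not adjusted for that choice. SIAE encodes a sialic acid esterase. The SIAE 3'UTR had 29.2, 34.4 and 18.6 CPM with CR-1-31-B and 111, 242 and 39.6 CPM with silvestrol, against 60.7, 237 and 96.5 CPM with DMSO and 62.5 CPM in the input. It was low in all 3 CR-1-31-B libraries, while the silvestrol libraries spanned the range of DMSO. The log2 difference of CR-1-31-B minus silvestrol was -2.29 (95% interval -3.45 to -1.14, edgeR adjusted p = 1.00), and without the low-count filter SIAE was the 1 member called (adjusted p = 0.00158). RELL1, a relative of the receptor RELT, had 6.83, 12.5 and 10.9 CPM with CR-1-31-B and 1.11, 0.996 and 2.33 CPM with silvestrol, against 15.9, 18.6 and 12.7 CPM with DMSO and 14.1 CPM in the input. It was higher with CR-1-31-B than with silvestrol, by a log2 difference of 2.71 (95% interval 0.83 to 4.59), on 91 counts over the 9 libraries. All 3 silvestrol libraries had under 3 counts, which would be 1.66, 2.99 and 3.49 CPM in them. Every CR-1-31-B library was above every silvestrol library, and RELL1 was not called (adjusted p = 1.00 by edgeR). NUDT4 was lower with CR-1-31-B, at a mean of 3.17 CPM against 11.4 CPM with silvestrol. The log2 difference was -1.89 (95% interval -3.71 to -0.06), and NUDT4 was not called by edgeR either. In CR-1-31-B libraries 1, 2 and 3, a level of 3 counts would be 1.86, 2.35 and 3.28 CPM.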

How the data were processed

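Crosslinked RNA was measured in 9 anti-FLAG eCLIP libraries, 3 each with silvestrol, CR-1-31-B and DMSO, and 1 input library. The authors deposited whole-number counts per gene symbol and transcript class (7 classes). The tools cutadapt and Bowtie 1.1 are named, per the submitters' processing notes. The build of the genome, the annotation, duplicate removal, strand use and the handling of reads with several matches are not given in the sources used here, so counts of genes with near-identical copies or antisense partners are uncertain. Each table has 1 line without a gene name, which was left out.

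The members and the gene lists were chosen with earlier results of these data known, and the 28 lists were written by gene family. CPM used all counts of a library. Log2 ratios to the input add 1 CPM to both sides, and linear ratios of single genes do not. The fit used edgeR 4.0.16 (quasi-likelihood test, TMM, filterByExpr over the 9 anti-FLAG libraries, 24713 features) in R 4.3.3, with Benjamini-Hochberg adjustment over all features and a threshold of 0.05. DESeq2 1.42.0, limma voom (limma 3.58.1), no filter, no TMM, the library number as a block and each library left out were the alternatives. Simulated data of this design had 22688 features and no effect of the library number. In them, edgeR recovered 3 of 100 features lowered 2-fold and 21 of 100 lowered 4-fold for both rocaglates against DMSO. It called 1 unchanged feature. Python 3.11.15 and pandas 2.3.3 were used for the rest.

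Whether library numbers pair the samples was read from the data, since the labels do not say. Deviations from the group means correlated at 0.102 to 0.263 in the 9 pairs of the same number. In the 18 pairs of another number and another group they correlated at -0.203 to 0.0163, and pairs within a group were left out. Deviations cancel within a group, so these lower values follow from the positive ones and are not a second observation. By the positive values, libraries of the same number were more alike. The main fit leaves the number out all the same, and only the block fit includes it. SE, p-values and intervals of single genes come from the main fit unless another is named, so they ignore this pairing. Replicates differed by more than sampling noise, with a chi-square of 4.66 to 10.4 per degree of freedom.

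Genes were named as follows: the 12 members of highest DMSO CPM, the 10 of lowest ratio, the 6 highest and 6 lowest DMSO to input ratios with at least 10 input counts, 5 3'UTRs on either side of the limit, members called in any contrast, up to 10 genes with a called leader or CDS, the 4 largest differences between compounds, and 3 members of each list with at least 5. HIST1H3B enters through its list. The further members of the elongation, initiation, ribosomal and glycolysis lists were named to complete those lists, after their values were seen. Items met by these rules that are withheld are not reported here.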

Additional observations from a re-analysis of the deposited data

How the results depend on the processing

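The rule found 545 members at 180 counts or more, 1876 at 45 counts or more, 221 at a ratio of at most 0.5, 626 when each compound had to meet the limit, 432 at 0.66 times the median 3'UTR ratio (chosen after seeing the data), and 880 to 1472 with single libraries left out. The set itself changed more than its size, as 725, 755 and 794 of the 1122 members remained without DMSO library 1, 2 and 3. A ratio of medians gave 1531 rows, 880 of them members, and totals without the HINT3 3'UTR gave 1300. Members called lower for both rocaglates numbered 7 with DESeq2, 8 with the replicate block and 0 to 1 with single libraries left out. For silvestrol they numbered 1 with DESeq2 and 3 with the block (0 to 0 with libraries left out), and for CR-1-31-B 2 with DESeq2, 1 with limma voom, 2 with no filter, 1 without TMM, 3 with the block and 0 to 2 with libraries left out. Between the compounds 1 was called with no filter and 0 to 0 with libraries left out. Leaders called higher numbered 54 with DESeq2, 36 with no filter, 54 with the block and 0 to 34 with libraries left out. Called CDS numbered 8 with DESeq2, 1 with limma voom, 12 with the block and 0 to 3 with libraries left out. The median leader fold change spanned 0.25 to 0.45 and that of CDS -0.21 to -0.02 on the log2 scale. The members' median DMSO to input ratio was -0.021 with totals of the mRNA classes, against 0.44, and 0.40 to 0.44 with 1 DMSO library left out. The share difference was -1.69 percentage points without HINT3 and -4.70 to -3.40 with libraries left out, and the left-out ratio was 0.735 to 0.895 by number. Among 144 values of named genes, 1799 alternatives kept direction and side of the threshold, 208 lost the call and 6 gained one. Most of these values were member 3'UTRs in the contrast of the rule, where only HINT3 was called. Most of the 1799 were thus uncalled values that stayed uncalled, and nothing is read from that number. The 208 losses fell on called values only. The NDUFA11 3'UTR had a log2 fold change of 0.049 without DMSO replicate 2, against -0.95 with all libraries and -1.37 to 0.049 over the libraries left out, and the cause was not tested. Many members rested on few counts, as 577 (51.4%) had under 180 over the 9 libraries, against 43.7% of the other eligible 3'UTRs.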
